A study of Mus musculus with 8 samples.

Results

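The lipoxygenases and prostaglandin enzymes described here are 10 genes of eicosanoid metabolism: Alox15, Alox5, Alox12, Alox5ap, Lta4h, Ptgs1, Ptgs2, Ptges, Ptgds and Hpgd. They are 10 of the 36824 genes on the array, and they are read by 16 of its 56601 probes, namely every non-control probe to which the scanner files give one of these gene names. The genes were chosen in part by their measured levels on these arrays, with earlier results known. Alox15 had stood among the genes with the largest difference between untreated db/db and normal kidney, and Alox5 among those lower after the mimic than after control miRNA. For that reason Alox15 against normal mice, and Alox5 in each comparison that uses mimic or control miRNA mice, are given below as values with no test.

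The 8 arrays each hold RNA of the whole kidney of 1 male mouse aged 20 weeks on the C57BLKS/J Iar background, with 2 mice in each of 4 groups. Mimic mice carried Leprdb on both chromosomes and received nanoparticles, labelled PEI, loaded with a miR-181b-5p mimic, which is a synthetic RNA in place of the mature miRNA. Control miRNA mice had the same genotype and received such particles with a control miRNA. Untreated db/db mice had the same genotype and no particles. Normal mice, labelled m+/m+, carried a working leptin receptor. The Leprdb mutation acts throughout the body, and such mice are obese and diabetic, so the comparison with normal mice is one of a whole disease state and not of a kidney defect. The sources used here give no dose, route or schedule for the particles.

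Eicosanoids are signalling lipids made from arachidonic acid that phospholipases release from membranes. Lipoxygenases, of which Alox5, Alox12 and Alox15 are examples, add oxygen to it on the way to leukotrienes, lipoxins and hydroxy fatty acids, while the cyclooxygenases Ptgs1 and Ptgs2 open the way to prostaglandins, which terminal synthases complete and Hpgd inactivates. In the kidney, prostaglandins of the medulla and collecting duct act on blood flow and on salt and water handling, and lipoxygenases are best known from leukocytes, platelets and epithelia.

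The sequence of the mature miRNA, not of the mimic itself, and those of 3 probes are printed for reference. Capitals mark the seed, bases 2 to 8, of miR-181b-5p, taken from RefSeq at chr1:137966650-137966673 and chr2:38853845-38853868 on the plus strand of GRCm38.p6. The probe for Alox15 (chr11:70159115-70159339, minus strand, mm9) reads the gene with the largest difference, and its 60 bases span 225 bases of genome, so it lies across an intron. The second probe for Alox12 (chr11:70063629-70063688, minus strand, mm9) and the third for Ptges (chr2:30748214-30748273, minus strand, mm9) read genes whose probes are compared with each other below.
miR-181b-5p: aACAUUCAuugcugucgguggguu
Alox15 probe A_51_P252565: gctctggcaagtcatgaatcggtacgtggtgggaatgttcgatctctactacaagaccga
Alox12 probe A_51_P520306: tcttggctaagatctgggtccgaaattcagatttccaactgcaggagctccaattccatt
Ptges probe A_55_P1974189: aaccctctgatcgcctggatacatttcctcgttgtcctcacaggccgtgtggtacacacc
The site that pairs with the seed, TGAATGT, was absent from all 16 member probes on both strands, against 0.809% of the 56601 probes in the sense direction and 0.579% in the antisense direction. A probe covers 60 bases only, so this says nothing of the rest of each transcript.

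Levels below are log2 intensities relative to the 75th percentile of the array, which is 0, and a difference of 1 is a factor of 2 between mice. Between 56.5% and 62.5% of the 59305 non-control spots were well above background on each array, and 0 were saturated. The 2 mimic arrays were the least alike, with r = 0.976 and 2474 genes more than 2-fold apart, against r from 0.991 to 0.996 and 168 to 692 genes in the other groups. Mimic mouse 1 stood alone at 82.2 on a first principal component with 44.7% of the variance, where the other 7 arrays lay between -53.8 and 16.7. For Alox5ap, Alox12, Ptgs1 and Hpgd, tested differences that rest on this mouse are therefore given with and without it. For the other members the levels of each mouse are given. For the other genes of the pathway only the number of calls that remain without it is given. All 8 arrays were on 1 slide, and their place on it cannot be told apart from the groups. The brightest probe for Lepr, the mutated gene, averaged 2.76 ± 0.27 in mimic, 2.81 ± 0.18 in control miRNA and 2.88 ± 0.02 in untreated db/db kidney, against 3.65 ± 0.04 in normal kidney (SD, n = 2 each). A dimmer Lepr probe, also above background on all 8 arrays, differed more. It averaged -3.78 in mimic, -3.76 in control miRNA and -3.71 in untreated db/db kidney, against -1.59 in normal kidney.

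**Figure D1:**
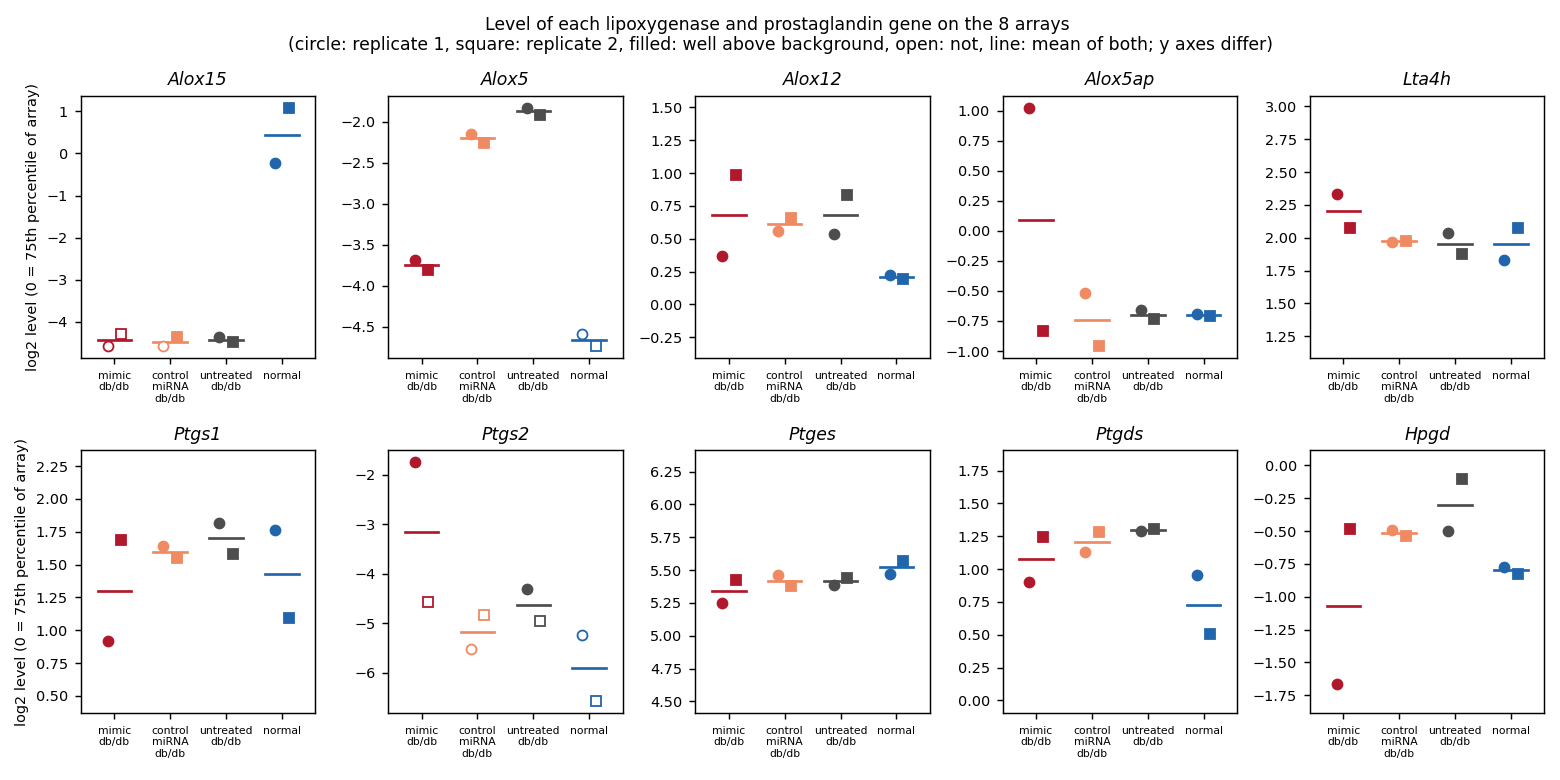
Each panel shows 1 gene, with the log2 level (0 = 75th percentile of the array) of its brightest probe on the y axis and the groups on the x axis (circle, mouse 1; square, mouse 2; filled, well above background; open, not; line, mean of both). Alox15 is at -4.29 or lower in all 6 db/db mice and at -0.22 and 1.09 in normal mice, Alox5 separates all 4 groups, and in Alox5ap, Ptgs2 and Hpgd mimic mouse 1 lies apart from the other 7.

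Alox15, the 12/15-lipoxygenase that oxygenates arachidonic and linoleic acid in mouse macrophages and other cells, was measured clearly only in normal kidney. Its log2 level was -4.58 and -4.29 in mimic mice, -4.57 and -4.37 in control miRNA mice and -4.36 and -4.48 in untreated db/db mice, against -0.22 and 1.09 in normal mice. All 6 db/db values lay between -4.58 and -4.29, far below both normal values. The probe was well above background on 0 of 2 mimic arrays, 1 of 2 control miRNA arrays, 2 of 2 untreated arrays and 2 of 2 normal arrays.

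The difference in Alox15 from normal mice was -4.87 in mimic mice, at least 28.4-fold lower given the lowest signal that counts as above background, and -4.90 in control miRNA mice. In untreated db/db mice it was -4.85, or 28.9-fold lower. The size depends on the background correction: with normexp and an offset of 50, which draws dim probes together, the differences were -2.91, -2.99 and -2.97 in mimic, control miRNA and untreated mice. These values describe the contrast that chose the gene. Among the db/db groups Alox15 overlapped throughout, and mimic minus control miRNA was 0.03 (SE 0.399; limma, adjusted p = 0.983). Values so close to background have little room to fall further, so a further decrease in a db/db group was not detectable with this probe. In whole kidney, fewer cells of a type and less RNA per cell cannot be told apart.

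Marker genes of cell types known for Alox15, and of others a kidney sample can hold, had the following levels. The log2 of the summed level of 11 macrophage markers, all above background on every array, was 6.20 and 4.30 in mimic, 4.67 and 4.50 in control miRNA and 4.36 and 4.45 in untreated db/db mice, against 5.42 and 5.36 in normal mice. This list was lower than in normal mice in 5 of 6 db/db mice, as Alox15 was in all 6, and higher in mimic mouse 1. Of 6 eosinophil markers, 4 were above background on some array and the defining granule genes Prg2 and Epx on none. Of 6 markers of peritoneal macrophages, 4 were above background and Timd4 and Prg4 on none. The log2 of the summed level of the 6 peritoneal macrophage markers was 3.05 and 2.93 in mimic, 2.83 and 2.72 in control miRNA and 2.80 and 2.65 in untreated db/db mice, against 2.57 and 2.63 in normal mice. Each db/db mouse was above both normal mice in this sum, but by the mean log2 level of the same list the groups overlapped. That mean was -3.28 and -3.28 in mimic, -3.24 and -3.52 in control miRNA and -3.21 and -3.35 in untreated db/db mice. In normal mice it was -3.20 and -3.59. Fat cell markers (9 of 9 above background somewhere) summed to 4.27 and 3.89 in mimic, 4.15 and 4.06 in control miRNA and 4.02 and 3.80 in untreated db/db mice, against 6.75 and 3.91 in normal mice. The mean log2 level of the fat cell list was -1.99 and -2.63 in mimic, -0.98 and -2.80 in control miRNA and -2.98 and -2.93 in untreated db/db mice, against 1.30 and -1.12 in normal mice. By the mean both normal mice were above 5 of 6 db/db mice, and by the sum only normal mouse 1 was above all of them. The part of any of these cell types in the Alox15 values was not tested.

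Alox5, the enzyme that makes leukotriene A from arachidonic acid and is known mainly from myeloid cells, ran the other way. Its probe (chr6:116360326-116360385, minus strand, mm9) gave -3.69 and -3.81 in mimic mice, -2.15 and -2.26 in control miRNA mice, -1.83 and -1.92 in untreated db/db mice and -4.60 and -4.74 in normal mice. No group overlapped any other, and the order was untreated db/db highest, then control miRNA, then mimic, then normal. The neighbouring control miRNA and untreated groups lay closest, with a difference of -0.33 and SDs of 0.08 and 0.06. The probe was above background on all 6 db/db arrays and on 0 of 2 normal arrays, so the normal level is only a bound.

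Alox5 rose in untreated db/db kidney, at least 5.77-fold against normal kidney (log2 difference 2.80, SE 0.121; limma, adjusted p = 0.00113). The probe was tested only because it was above background in db/db groups. The p-value therefore sets measured levels against normal signal that was not well above background. This contrast shares no array with the one in which Alox5 was noticed. The difference was positive in 18 of 18 other settings in which the gene was tested, and its size was 0.98 with normexp. These settings reuse the same arrays. As descriptions, Alox5 was at least 1.57-fold higher in mimic and at least 4.59-fold higher in control miRNA kidney than in normal kidney. These bounds hold for the background subtraction of the scanner files, and with normexp the log2 differences were 0.13 in mimic and 0.77 in control miRNA mice. In the same way mimic minus control miRNA was -1.55 and mimic minus untreated db/db was -1.88.

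Leukocyte markers stand beside Alox5 as follows. The macrophage sums given above were lower in both untreated db/db mice than in both normal mice. For 9 neutrophil markers, 4 of them above background on every array, the log2 of the summed level was 6.48 and 5.39 in mimic, 5.51 and 5.57 in control miRNA and 5.42 and 5.29 in untreated db/db mice, against 5.82 and 5.68 in normal mice. The neutrophil sum was lower in untreated db/db than in normal mice, but the mean log2 level of the same list, -2.09 and -1.77 in untreated db/db mice against -1.67 and -2.21 in normal mice, overlapped. Both sums were highest in mimic mouse 1. The part of leukocytes in the Alox5 values was not tested.

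The partners of Alox5 among the members, Alox5ap and Lta4h, did not share its pattern. Alox5ap, the membrane protein that presents arachidonic acid to Alox5, had levels of 1.03 and -0.84 in mimic, -0.52 and -0.96 in control miRNA and -0.66 and -0.74 in untreated db/db mice, against -0.69 and -0.71 in normal mice. A single array, mimic mouse 1, was high, and the other 7 lay between -0.96 and -0.52. The second probe for Alox5ap gave the same picture, with 0.71 in mimic mouse 1, -1.42 in mimic mouse 2 and -1.59 to -1.07 on the other 6 arrays. Mimic minus normal was 0.79 (SE 0.554; limma, adjusted p = 0.368), and -0.14 without mimic mouse 1. The neutrophil and macrophage sums above were highest in that mouse as well, and their part in its Alox5ap value was not tested.

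Lta4h, the hydrolase that turns leukotriene A into leukotriene B, varied little. It had levels of 2.33 and 2.07 in mimic, 1.97 and 1.97 in control miRNA and 2.04 and 1.87 in untreated db/db mice, against 1.83 and 2.07 in normal mice. Each db/db group overlapped the normal group, and the largest difference was 0.25 for mimic minus normal (limma, adjusted p = 0.299). A dimmer probe for another transcript of Lta4h (chr10:92926871-92926930, mm9) ran lower in untreated db/db mice, at -3.29 and -3.64, against -2.66 and -3.13 in normal mice, and this did not pass (-0.57; limma, adjusted p over probes = 0.141).

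Alox12, the 12-lipoxygenase of platelets, was above background on all arrays with its brighter probe. Its levels were 0.37 and 0.99 in mimic, 0.56 and 0.66 in control miRNA and 0.53 and 0.83 in untreated db/db mice, against 0.22 and 0.19 in normal mice. Every db/db mouse was above both normal mice, but the differences of 0.47, 0.40 and 0.48 did not pass in limma (adjusted p = 0.207, 0.345 and 0.244). Without mimic mouse 1 the difference of the mimic group became 0.78, and without mimic mouse 2 it became 0.16. Each of these rests on 1 mimic mouse. The second Alox12 probe, printed above, was dim at -4.51 to -3.63 on the 8 arrays, and with it mimic minus normal was 0.03. Of 8 platelet markers Gp1ba was above background on no array. The mean log2 level of that list was -3.19 and -4.88 in mimic, -3.92 and -4.44 in control miRNA and -4.16 and -4.17 in untreated db/db mice, against -4.43 and -4.50 in normal mice. The log2 of its summed level overlapped between each db/db group and normal mice. The sum was 0.89 and -1.27 in mimic, 0.05 and -0.66 in control miRNA and -0.51 and -0.40 in untreated db/db mice. In normal mice the sum was -0.25 and -0.52. Of these markers 3 were above background on every array, and the part of platelets in the Alox12 values was not tested.

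Among the cyclooxygenases, Ptgs1, the constitutive form, was well measured and Ptgs2, the inducible form, was not. Ptgs1 had levels of 0.92 and 1.68 in mimic, 1.64 and 1.55 in control miRNA and 1.82 and 1.58 in untreated db/db mice, against 1.76 and 1.09 in normal mice. The spread inside the mimic and normal pairs was wider than any difference between groups, the largest of which was -0.40 for mimic minus untreated db/db (SE 0.315; limma, adjusted p = 0.575) and -0.02 without mimic mouse 1. Collecting duct marker genes, a known site of Ptgs1, had a mean log2 level of 1.02 and 1.90 in mimic, 1.64 and 1.62 in control miRNA and 1.73 and 1.69 in untreated db/db mice, against 1.57 and 1.28 in normal mice. The lower mouse of the mimic pair and of the normal pair was the same one in Ptgs1 and in these markers, and this relation was not tested.

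Ptgs2 was above background on 2 arrays only, 1 of a mimic mouse and 1 of an untreated db/db mouse, and it had no group with both arrays above background, so it was not tested. Its level was -1.75 in mimic mouse 1 and -4.57 in mimic mouse 2, -5.52 and -4.84 in control miRNA mice, -4.31 and -4.96 in untreated db/db mice and -5.24 and -6.57 in normal mice. Mimic mouse 1 and untreated mouse 1 were the arrays above background. The other 6 values lie at -4.57 or lower, and the lowest signal that counted as above background was -4.77 to -4.33 over the arrays. A second Ptgs1 probe, above background on 3 arrays, was left out of the tests in the same way.

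Ptges, the inducible terminal synthase of prostaglandin E, gave different answers with its 3 probes. The brightest (chr2:30744995-30745054, minus strand, mm9) had levels of 5.25 and 5.42 in mimic, 5.46 and 5.38 in control miRNA and 5.39 and 5.44 in untreated db/db mice, against 5.47 and 5.57 in normal mice. All 6 db/db values were slightly below both normal values, and the differences of -0.18, -0.10 and -0.11 did not pass (limma, adjusted p = 0.336, 0.668 and 0.620). The middle probe (chr2:30747838-30747897) had 0.91 and 0.29 in mimic, 0.32 and 0.39 in control miRNA and 0.69 and 0.33 in untreated db/db mice, against -0.15 and -0.72 in normal mice. Here all 6 db/db values were above both normal values, by 1.03, 0.79 and 0.94 on average, and these differences did not pass either (limma, adjusted p over probes = 0.0745, 0.177 and 0.106).

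The third Ptges probe, printed above, had levels of -0.62 and -1.32 in mimic, -1.24 and -1.18 in control miRNA and -0.98 and -1.16 in untreated db/db mice, against -1.21 and -2.52 in normal mice. A single normal mouse was low with it, and the mimic and control miRNA groups overlapped the normal group. With all 3 probes averaged, the Ptges difference from normal was 0.58 in mimic, 0.45 in control miRNA and 0.54 in untreated db/db mice, the opposite sign of the brightest probe, and none of these passed (limma, adjusted p = 0.153, 0.317 and 0.208). The direction of Ptges in db/db kidney is thus set by the choice of probe.

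**Figure D2:**
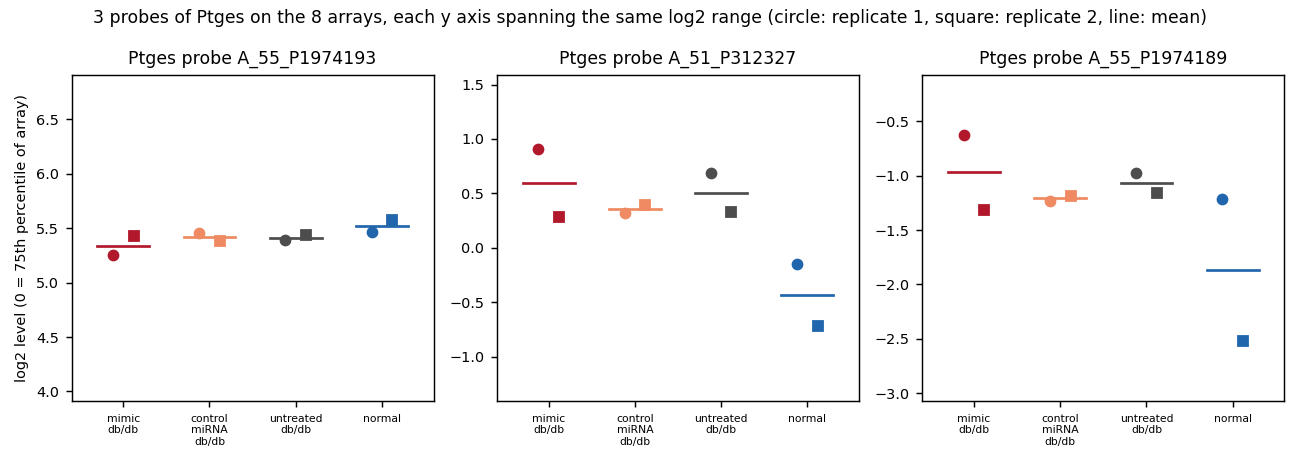
Log2 level (0 = 75th percentile of the array) of the 3 probes for Ptges, 1 panel each, in the 4 groups on the x axis (circle, mouse 1; square, mouse 2; line, mean of both); the y axes span the same log2 range. With the brightest probe normal mice are at the top (5.47 and 5.57), and with the middle probe at the bottom (-0.15 and -0.72).

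Ptgds, the lipocalin-type synthase of prostaglandin D, was read by 1 probe printed on 10 spots per array. Its level was 0.90 and 1.25 in mimic, 1.13 and 1.28 in control miRNA and 1.29 and 1.30 in untreated db/db mice, against 0.95 and 0.51 in normal mice. Control miRNA and untreated db/db mice were above both normal mice, and the mimic pair overlapped the normal pair. The difference from normal was 0.34 in mimic, 0.48 in control miRNA and 0.57 in untreated db/db mice, and it did not pass in limma (adjusted p = 0.280, 0.230 and 0.146). Without normal mouse 2 the untreated difference was 0.34, and without normal mouse 1 it was 0.79.

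Hpgd, the dehydrogenase that starts the breakdown of prostaglandins, had levels of -1.67 and -0.48 in mimic, -0.50 and -0.54 in control miRNA and -0.50 and -0.11 in untreated db/db mice, against -0.77 and -0.83 in normal mice. Mimic mouse 1 was the lowest of the 8, while the other 5 db/db mice lay above both normal mice. Mimic minus untreated db/db was -0.77 (SE 0.369; limma, adjusted p = 0.406), and -0.18 without mimic mouse 1. Mimic minus normal was -0.27 with both mimic mice and 0.32 without mouse 1, so its sign rests on that mouse. Proximal tubule markers, 7 of 7 above background on every array, had a mean log2 level of 6.56 in mimic mouse 1 and 7.03 to 7.40 on the other 7 arrays. The thick ascending limb list was also lowest in that mouse, at 1.82 against 2.36 to 2.57, as was the collecting duct list given above. The intercalated cell list was not, at 2.38 against 2.08 to 2.47. The part of these cell types in the Hpgd value was not tested.

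**Figure D3:**
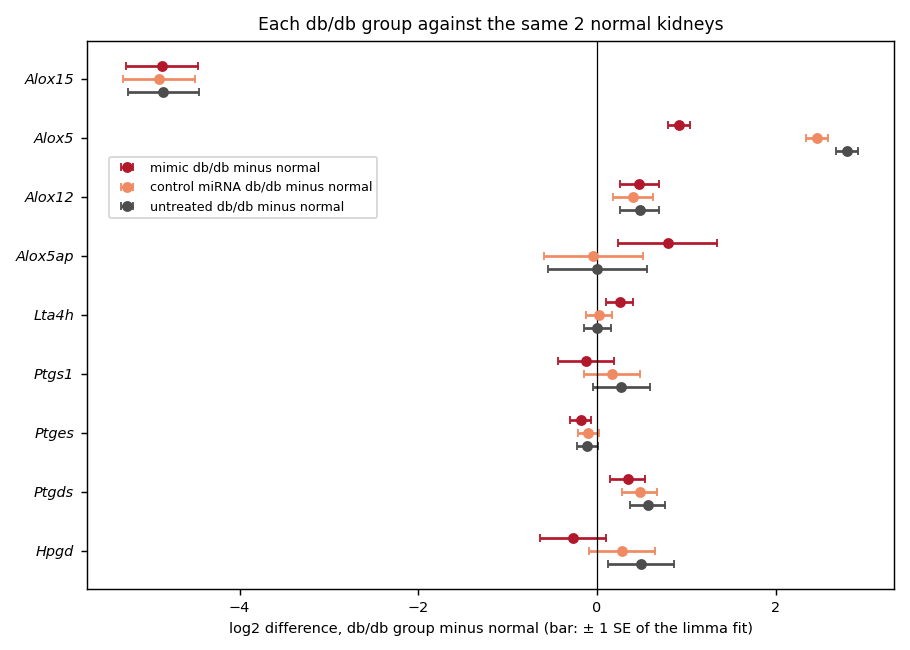
Log2 difference from the 2 normal kidneys on the x axis for the 9 tested genes, with ± 1 SE of the limma fit, for mimic, control miRNA and untreated db/db mice from top to bottom in each gene; the 3 sets share the same normal mice. Alox15 lies near -4.9 in all 3, Alox5 is spread from 0.92 in mimic to 2.80 in untreated db/db mice, and the 7 other genes lie within 1 of 0.

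Of the 9 members with a probe that passed the filter on dim probes, 7 did not pass an adjusted p of 0.05 in limma in any comparison with normal mice. The 2 left are Alox15, lower, and Alox5, higher, and they lie past that value in each of the 3 comparisons. Over all 22368 genes 8.27% passed in mimic, 1.72% in control miRNA and 3.35% in untreated db/db against normal kidney. Except for Alox5 in untreated mice, these are the members that the same contrasts or arrays chose, so the counts are a description with no test and nothing is read from them. Over probes it was again 2 of 14 members' probes each time, against 7.37%, 1.51% and 3.84% of all 33638 probes. Leaving out either untreated mouse or either control miRNA mouse left 1 in that group's comparison with normal mice. Groups did not overlap for 4 of 9 members in mimic, 6 in control miRNA and 6 in untreated db/db against normal kidney, where all genes gave 53.7%, 59.3% and 63.3%. These shares are near the background. Median member differences of 0.25, 0.17 and 0.27 compare with medians over all genes of -0.04, -0.01 and -0.01.

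Between the db/db groups no member passed. In mimic minus control miRNA it was 0 of 9 members and 0% of genes (2036 of 22368 at an unadjusted p under 0.05, by limma), in control miRNA minus untreated db/db 0 of 9 and 0% (728 unadjusted), and in mimic minus untreated db/db 0 of 9 and 0% (3103 unadjusted). Over probes the share was also 0% in each of the 3. Groups did not overlap for 2 of 9 members, Alox5 and Lta4h, in mimic minus control miRNA, against 39.1% of genes. They did not overlap for 2 of 9, Alox5 and Ptgds, in control miRNA minus untreated db/db, against 40% of genes. In mimic minus untreated db/db it was 3 of 9, Alox5, Lta4h and Ptgds, against 47.4% of genes. Median member differences were -0.08, -0.07 and -0.08, near the medians of all genes of -0.03, -0.02 and -0.04.

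Around the members, 8 lists held 87 other genes of the pathway, of which 84 were on the array and 70 were tested. Against normal kidney, 8 were higher and 5 lower in mimic, 2 higher and 4 lower in control miRNA and 6 higher and 4 lower in untreated db/db kidney, which is 18.6%, 8.57% and 14.3% of the 70, beside 8.27%, 1.72% and 3.35% of all genes. The lists were chosen with earlier results of these data known, so these shares are a description. None passed between the db/db groups. These comparisons share the 2 normal mice, and the calls depend on single mice and on the settings. Of the 29 calls, 2 remained without normal mouse 1, 4 without normal mouse 2, 7 without either untreated mouse, 12 without either control miRNA mouse and 25 without mimic mouse 1. With no filter on dim probes 14 remained, and with only the 4 arrays compared 16.

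Of 17 tested genes of phospholipase A2 and arachidonate release, 2 rose in mimic kidney, 0 in control miRNA kidney and 1 in untreated db/db kidney, and none fell. Pla2g5, a secreted phospholipase A2, had levels of 2.49 and 3.02 in mimic, 3.41 and 3.11 in control miRNA and 3.43 and 3.48 in untreated db/db mice, against 2.18 and 2.12 in normal mice. It was higher than normal in all 6 db/db mice and passed in untreated mice (1.31; limma, adjusted p = 0.0324). Pla2g2e, another secreted form, and Pla2g15, the lysosomal form, passed in mimic mice (1.07 and 0.73; limma, adjusted p = 0.0313 and 0.0403). In control miRNA and untreated mice Pla2g2e was 0.56 and 0.62 and Pla2g15 0.43 and 0.06, which did not pass. Of the other lipoxygenases 3 of 4 were tested and none passed, the largest untreated difference being 1.57 for Alox12e, an epidermal lipoxygenase of the mouse (limma, adjusted p = 0.425).

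Of 13 tested genes of leukotriene synthesis and breakdown, 2 rose and 2 fell in mimic kidney, and 1 fell in control miRNA and in untreated db/db kidney. The gene that fell in all 3 groups was Ggt1, the glutamyl transferase of the tubule brush border that also turns leukotriene C into leukotriene D. It had levels of 4.73 and 4.58 in mimic, 4.66 and 4.48 in control miRNA and 4.42 and 4.58 in untreated db/db mice, against 5.56 and 5.76 in normal mice. The groups did not overlap, and the differences were -1.0, -1.09 and -1.16 (limma, adjusted p = 0.0144, 0.0295 and 0.0199). Ltc4s, which joins glutathione to leukotriene A, rose in mimic kidney (1.01; limma, adjusted p = 0.0294), where Cyp4f16 also rose (0.73; 0.0319). In control miRNA and untreated mice Ltc4s was 0.76 and 0.76 and Cyp4f16 0.46 and 0.55, which did not pass. Mimic minus control miRNA was 0.26 for Ltc4s and 0.27 for Cyp4f16 (limma, adjusted p = 0.659 and 0.603). Ggt5 fell in mimic kidney by its brightest probe (-0.73; limma, adjusted p = 0.0365). With its probes averaged it was 0.60 (0.205), so its direction depends on the probe.

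Of 7 tested leukotriene and lipoxin receptors 1 passed in mimic and in untreated db/db kidney and 0 in control miRNA kidney. Over all genes 8.27%, 3.35% and 1.72% passed against normal kidney, in the same order of groups. The receptor that passed was Oxgr1, a receptor for oxoglutarate that has also been described as one for leukotriene E. It rose in mimic (0.78, limma, adjusted p = 0.0265) and untreated db/db kidney (0.75, limma, adjusted p = 0.0461). Of 7 tested prostanoid receptors 1 rose, namely Ptgfr, the receptor for prostaglandin F. It had levels of 1.22 and 1.48 in mimic, 0.86 and 0.72 in control miRNA and 1.19 and 1.05 in untreated db/db mice, against 0.08 and 0.24 in normal mice. All 6 db/db mice were above both normal mice, and it passed in mimic (1.19; limma, adjusted p = 0.00975) and untreated mice (0.96; 0.0311), while control miRNA gave 0.63 (0.0860).

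Of 11 tested genes listed as other prostanoid synthases, 1 rose and 2 fell in mimic and in control miRNA kidney, and 2 rose and 2 fell in untreated db/db kidney. Those that fell, Akr1c18 and Akr1c14, are hydroxysteroid dehydrogenases known mainly for the breakdown of steroids. Akr1c18 had levels of -1.80 and -2.34 in mimic, -2.89 and -3.00 in control miRNA and -3.15 and -2.58 in untreated db/db mice, against 1.21 and 0.41 in normal mice. Akr1c14 had -0.83 and 0.35, 0.50 and 0.27, and 0.46 and 0.59 in the same 3 groups, against 3.94 and 4.19 in normal mice. Neither gene had a db/db value near a normal one, and the differences in mimic, control miRNA and untreated mice were -2.89, -3.75 and -3.68 for Akr1c18 and -4.30, -3.68 and -3.54 for Akr1c14 (limma, adjusted p from 0.00566 to 0.0169 over all 6).

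The synthases that rose were Ptgis and Cbr1. Ptgis, prostacyclin synthase, had levels of 0.89 and 0.58 in mimic, 1.36 and 1.06 in control miRNA and 1.61 and 1.38 in untreated db/db mice, against 0.07 and -0.21 in normal mice. It passed in control miRNA (1.29; limma, adjusted p = 0.0378) and untreated mice (1.57; 0.0199) and was 0.81 in mimic mice (0.0539), while the difference between mimic and control miRNA, -0.48, did not pass (0.531). Cbr1, a carbonyl reductase that can turn prostaglandin E into prostaglandin F, passed in mimic (1.09; limma, adjusted p = 0.0173) and untreated mice (1.04; 0.0343).

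Of 8 tested genes of prostanoid breakdown and transport, 1 rose and 1 fell in each db/db group against normal kidney. Abcc4, which exports prostaglandins from cells, had levels of 2.75 and 3.50 in mimic, 3.33 and 3.71 in control miRNA and 3.55 and 3.64 in untreated db/db mice, against 1.97 and 1.71 in normal mice. The differences were 1.29, 1.68 and 1.75 (limma, adjusted p = 0.0423, 0.0455 and 0.0324). The gene that fell was Slc22a7, an organic anion transporter that carries prostaglandins, at -6.25, -6.86 and -6.64 (limma, adjusted p = 0.00617, 0.0132 and 0.0125). None of 5 genes of epoxide hydrolysis and hydroperoxide reduction passed, the largest difference being that of Ephx1, the microsomal epoxide hydrolase, at 1.13 in mimic, 1.35 in control miRNA and 1.27 in untreated db/db mice (limma, adjusted p = 0.0765, 0.0882 and 0.0815).

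**Figure D4:**
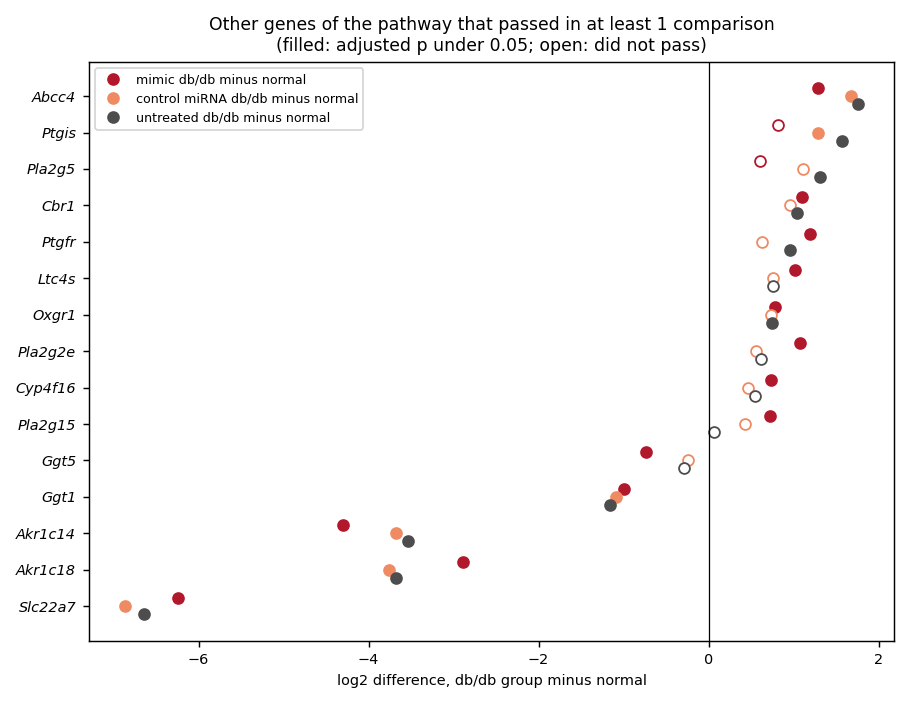
Log2 difference from the 2 normal kidneys on the x axis for the 15 pathway genes that passed in at least 1 comparison, ordered by the untreated difference (filled, adjusted p under 0.05 in limma; open, above it) for mimic, control miRNA and untreated db/db mice from top to bottom in each gene. Abcc4, Ptgis and Pla2g5 stand at the right and Slc22a7, Akr1c18 and Akr1c14 at the far left.

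Over the 8 arrays, 5 genes were most like Alox15 in level by Pearson's r among 7623 genes with a range of at least 1 log2 unit. They were Hsd17b11, a hydroxysteroid dehydrogenase of lipid droplets, at r = 0.997, Gm6300 at 0.994, the transcript ENSMUST00000223520 at 0.993, and Lipo3 and Spats2l at 0.991 each. Hsd17b11 had 4.04 and 3.98 in mimic, 3.99 and 4.10 in control miRNA and 3.98 and 3.98 in untreated db/db mice, against 5.61 and 6.26 in normal mice. With 6 db/db arrays against 2 normal ones, such an r rests on that split and on normal mouse 2 lying above normal mouse 1.

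Most like Alox5 were Ogn, a matrix proteoglycan, at r = 0.986, Fhl2, a LIM domain protein, at 0.984, the chemokine Cxcl12 at 0.978, the kinase Dapk2 at 0.975 and the transporter Abca8a at 0.974. Ogn had 0.64 and 0.51 in mimic, 1.74 and 1.40 in control miRNA and 1.99 and 1.72 in untreated db/db mice, against 0.26 and 0.16 in normal mice. Fhl2 had 2.02 and 1.99 in mimic, 2.78 and 2.66 in control miRNA and 2.90 and 2.80 in untreated db/db mice, against 1.76 and 1.31 in normal mice. In both, as in Alox5, mimic mice lay between normal mice and the 2 other db/db groups with no overlap. These r values describe 8 arrays that share 1 slide and fall into 4 groups.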

How the data were processed

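Kidney RNA of 8 mice was hybridised to 1-colour Agilent mouse arrays. The authors' scanner files hold, per the file headers, the background-subtracted and detrended spot intensity of Agilent Feature Extraction 12.0.3.1, the mean and local background intensity, and other quality calls, with probe positions on mm9. The deposited series table holds a ratio of each probe to its median over the 8 arrays, linear and rising with expression (found from the values, r of at least 0.99999 with the scanner values). Its centring is per probe and its column medians were 0.977 and 1.03 for mimic, 0.995 and 0.971 for control miRNA, 0.979 and 0.992 for untreated db/db and 1.05 and 1.08 for normal mice.

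From the intensities, spots of a probe were averaged, 4 probes with outlier spots were dropped, and the log2 of the other 56601 was taken relative to each array's 75th percentile over probes. A probe was kept if both arrays of some group had it well above background (33638 probes), and a gene was represented by its brightest probe (22368 genes). Symbols were updated through RefSeq GRCm38.p6: 33766 probes by accession, 9864 by symbol and 310 by synonym, and 12661 kept the array's name. All 4 groups were fitted together with limma 3.58.1 in R 4.3.3 (residual degrees of freedom 4, prior 2.193), with Benjamini-Hochberg adjustment of the p-values over all genes or, where said, over all probes. An exact permutation test of 2 against 2 mice cannot go below p = 0.333 and was not used. The design text counts mice, so arrays were taken as separate animals, and only 2 per group limit the precision. Where a probe was not well above background in a whole group, the fold is a bound against the higher of its own signal and the lowest signal called above background on each array, averaged over the group. The scripts were tested on simulated data.

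The members and the lists of pathway and marker genes were chosen with earlier results of these data known. The rule named every member, the pathway genes that passed in a comparison (up to 4 per list, those of largest change, otherwise the gene of largest change), and the 5 genes most like Alox15 and Alox5.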

Additional observations from a re-analysis of the deposited data

How the results depend on the processing

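The number of members past the threshold in limma is a description, since it is made up of Alox15 and Alox5, which earlier results chose. That number, 2 in mimic, 2 in control miRNA and 2 in untreated db/db against normal kidney and 0 between the db/db groups, was recomputed under 18 planned settings and 1 chosen after seeing the data. With probes well above background on all 8 arrays only, it was 0, 0 and 0 against normal kidney, because Alox15 and Alox5 are not above background on all 8. For mimic minus normal it was 1 with normexp, 0 with only the 4 arrays compared and 1 with array weights; the cause was not tested. Leaving out 1 mouse at a time gave 1 to 4 in mimic, 1 to 2 in control miRNA and 1 to 2 in untreated db/db against normal kidney, 0 to 3 in mimic minus control miRNA, 0 to 3 in mimic minus untreated db/db and 0 in control miRNA minus untreated db/db. With mimic mouse 1 as the lone mimic array, which is then assumed to vary like the other groups, Alox5ap was 1.72 against normal and Hpgd -0.87, and both passed (limma, adjusted p = 0.00441 and 0.0235).

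Of 1565 values recomputed, 1318 stayed the same, 195 lost the threshold, 10 gained it, 41 moved and 1 reversed. The same means past the threshold in both fits with 1 direction, or past it in neither with a shift under 1 SE. A value past it in neither fit moved if it shifted by 1 SE or more. Reversed means a change of sign with the threshold passed in at least 1 fit. It was Ggt5 in mimic minus normal with all its probes averaged (0.60; limma, adjusted p = 0.205). Sign changes of values past it in neither fit are not counted as reversed. An example is Ptges in untreated minus normal (-0.11, and 0.54 with its probes averaged). Over all genes the count past the threshold for mimic, control miRNA and untreated db/db against normal was 1849, 385 and 749, and it was 1034, 117 and 272 with no filter on dim probes, 2237, 959 and 1866 with normexp, 15, 852 and 2253 with only the 4 arrays compared, and 387, 1242 and 2300 with array weights. For untreated minus normal it ranged from 18 without untreated mouse 1 to 3261 without mimic mouse 1. With the spots version of the percentile, chosen after seeing the data, member counts stayed at 2, 2 and 2.

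Groups share replicate numbers, but the correlations of same-numbered deviations were 0.159, 0.101 and 0.0754 for mimic, control miRNA and untreated db/db with normal, 0.0637 for mimic with control miRNA, 0.133 for mimic with untreated db/db and -0.0194 for control miRNA with untreated db/db, so not every pair was over 0.1 and the numbers were not taken to pair the mice. With a replicate block the members past the threshold were 2, 2 and 2 against normal, and the genes 1426, 180 and 429, of the same 22368. Of the 29 pathway calls 21 remained under the replicate block and 8 were lost.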
